A study of Mus musculus with 17 samples.

Results

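The change in transcript share between 0 and 8 h of actinomycin D was described in ventricular cardiomyocytes labelled as MBNL1 knockout (KO). All 3 KO libraries taken at 8 h were compared with all 3 KO libraries taken at 0 h, which are 6 of the 17 libraries in the series. Of 55486 genes in the count table, 13229 had enough counts to be tested, and these held 99.9% of the counts. KO at 8 h means cells of 60-day-old mice with loss of function of MBNL1 that received actinomycin D at 2 µg/mL for 8 h. KO at 0 h means cells of the same label and age harvested before the drug. KO at 4 h (3 libraries) is given as the middle time, and wild type (WT) at 8 h and at 0 h (3 libraries each, same age and treatment) is used to test where the KO course differed. All cells were myocytes released by Langendorff perfusion with Liberase, sedimented in rising calcium and held for 3 h on laminin. The media of every group contained the contraction inhibitor BDM. The labels name neither the mutant allele nor the mice or isolations behind a replicate, so p-values measure only the spread between these samples, which may be technical. Cells cultured for 8 h without the drug are not analysed here, and a change with the drug and a change with time in culture cannot be told apart.

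Actinomycin D binds DNA and stops the RNA polymerases, so a transcript whose synthesis has ended declines at the rate of its own decay. Transcripts of signalling regulators and transcription factors are typically short-lived, while those of contractile, metabolic and ribosomal proteins are typically long-lived. AU-rich elements in the 3′ untranslated region (UTR) recruit proteins that speed removal of the poly(A) tail, and MBNL1 binds YGCY motifs in pre-mRNA and 3′ UTRs to act on splicing, localisation and stability. CPM values are counts scaled to the size of the library, so a long-lived transcript gains share when others are lost, and "rose" and "fell" below refer to that scaled share.

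The 6 KO libraries held 17368664 to 17968827 gene counts. Mitochondrially encoded genes took 36.0, 36.8 and 35.1% of counts at 8 h, against 39.5, 43.3 and 40.3% at 0 h. Mbnl1 (ENSMUSG00000027763, GRCm38 chromosome 3, 60472830 to 60629750) had 100.3, 106.0 and 105.0 CPM in KO at 8 h, against 102.6, 103.7 and 93.9 CPM in KO at 0 h. In WT the means were 86.8 ± 1.23 CPM at 8 h and 87.5 ± 1.30 CPM for the 3 libraries of 0 h (SD, n = 3 each), so the gene's total count was not lower under the KO label. A count over the whole gene does not show loss of a part of it, and it does not check the label. Esr1, the oestrogen receptor alpha gene, separated the labels instead, at 2316 ± 49.6 CPM in KO against 1.40 ± 1.68 CPM in WT at 8 h (SD, n = 3 each). The course of Mbnl1 from 0 to 8 h in KO was a log2 fold change of 0.05 ± 0.05 (SE, edgeR adjusted p = 0.389), but scaling by ribosomal protein counts turned it to -0.34, a call. Its paralogue Mbnl2 rose by 0.23 ± 0.05 (SE, edgeR adjusted p = 9.9e-05), was not called with library size alone and turned to -0.16 under ribosomal protein scaling.

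The labelled cell type was present, and the markers of other cell types moved with time. All 13 cardiomyocyte markers were detected, and 12 of them rose with TMM scaling, against 21.4% of all genes. The 13 summed to 92100 to 97900 CPM at 8 h, against 73600 to 77400 CPM at 0 h. Marker calls were not repeated under other scalings, but with scaling by ribosomal protein counts 0 of 28 adult sarcomere genes rose and 11 fell. The 10 endothelial markers all fell, against 23.2% of all genes, and summed to 46.7 to 51.4 CPM at 8 h and 162 to 186 CPM at 0 h. The 10 macrophage and leukocyte markers summed to 19.8 to 24.4 CPM at 8 h and 31 to 34.7 CPM at 0 h. The 9 fibroblast markers summed to 6.59 to 7.99 CPM at 8 h and 14.8 to 16.4 CPM at 0 h. The 9 pericyte and smooth muscle markers summed to 123 to 132 CPM at 8 h and 134 to 143 CPM at 0 h. None of these markers was at 0 in all 6 libraries. In such bulk samples fewer cells of a type and less RNA per cell cannot be told apart, and the part of cell composition in the results below was not tested.

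Over the whole course 5896 of 13229 genes (44.6%) passed an adjusted p of 0.05 by edgeR's quasi-likelihood test. Of these, 2829 rose (21.4% of genes tested) and 3067 fell (23.2%). The changes were lopsided in size: 950 genes (7.18%) fell by more than 2-fold, while 37 (0.28%) rose by more than 2-fold. The median log2 fold change of all genes was -0.02, with 5% of genes below -1.40 and 5% above 0.43. In 6879 genes (52.0%) the 3 libraries of 8 h and the 3 of 0 h did not overlap. The balance of directions depends on the scaling. With library size alone 1495 genes rose and 3988 fell, with scaling by ribosomal protein counts 27 rose and 8208 fell, and in the authors' deposited ratios 591 rose and 4513 fell. The all-gene median shifts by -0.11 without TMM factors and by -0.39 under ribosomal protein scaling, and small rises are relative to these shifts. Of the risers named below by the rule, mt-Rnr1, mt-Rnr2, Lars2, Mt2, Cox7a1, Rpl39, Rplp2, Ndufa3 and Tpt1 kept their calls under ribosomal protein scaling.

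**Figure D1:**
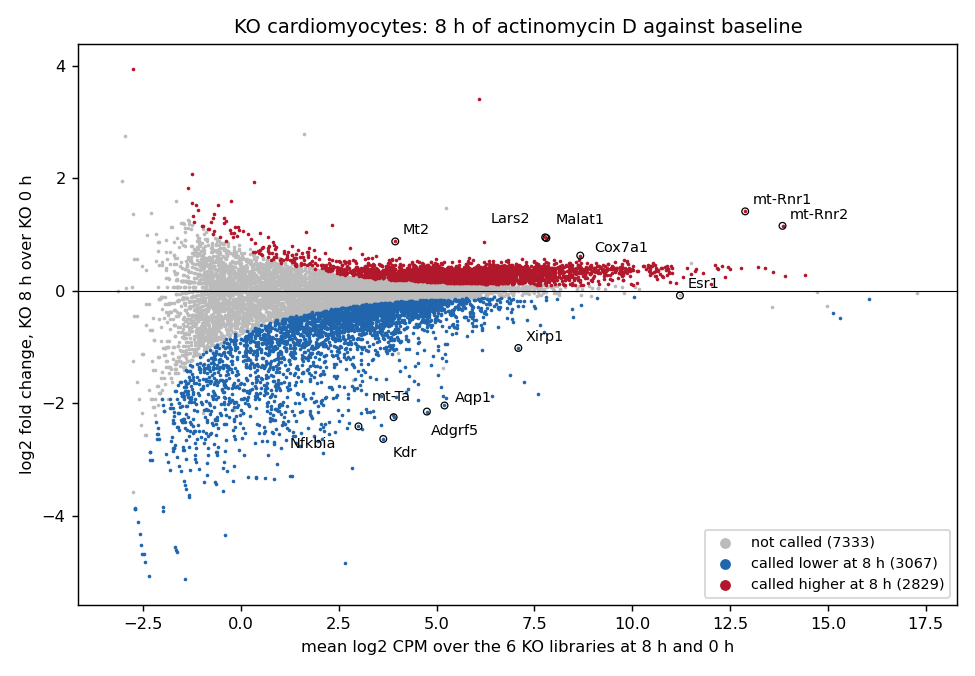
Each point is 1 of the 13229 tested genes; the x axis gives its mean log2 CPM over the 6 KO libraries and the y axis its log2 fold change, KO at 8 h over KO at 0 h. Blue points fell and red points rose by edgeR with TMM scaling; falls reach far further from 0 than rises, and 950 genes fell by more than 2-fold.

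The genes with the deepest falls, among those with a mean log2 CPM of at least 3 and no overlap between times, were led by genes of the vessel lining. Of the 15 lowest, 9 stand in the endothelial marker list, which holds 27 of the 13229 genes tested. That list was drawn up with earlier results of these data known, so the overlap is a description only. Kdr, a VEGF receptor gene (ENSMUSG00000062960, GRCm38 chromosome 5, 75932827 to 75978458), had 6.17, 4.04 and 4.69 CPM at 8 h, against 29.1, 30.96 and 32.4 CPM at 0 h. Every 8 h library lay far below every 0 h library, and the log2 fold change was -2.63 ± 0.10 (SE, edgeR adjusted p = 2.7e-33). At 4 h Kdr averaged 11.1 CPM, between the 0 and 8 h levels. The endothelial phosphatase gene Ptprb changed by -2.44 ± 0.11 (SE) and the sialomucin gene Podxl by -2.37 ± 0.10 (SE) on the log2 scale. Caveolin gene Cav1 (-2.20), the surface protein genes Ly6c1 (-2.17) and Ly6e (-2.10), the adhesion receptor gene Adgrf5 (-2.14), the water channel gene Aqp1 (-2.04) and the fatty acid binding protein gene Fabp4 (-1.94) complete the 9 (log2 fold changes). Aqp1 can serve as an example of their spread, with 17.04, 16.5 and 20.9 CPM at 8 h against 70.8, 73.2 and 79.4 CPM at 0 h.

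The remaining 6 of the 15 lowest were not on that marker list. Nfkbia, the inhibitor that holds NF-kappaB in the cytoplasm and is itself an NF-kappaB target (ENSMUSG00000021025, GRCm38 chromosome 12, 55489410 to 55492647), had 3.93, 3.23 and 3.13 CPM at 8 h, against 20.2, 16.6 and 17.7 CPM at 0 h. The groups were well apart and the log2 fold change was -2.41 ± 0.12 (SE, edgeR adjusted p = 3.1e-26). Nfkbia was already at 4.58 CPM at 4 h, so most of its loss fell in the first interval. Sgk1, a kinase induced by glucocorticoids and serum (GRCm38 chromosome 10, 21882184 to 21999903), had 5.14, 5.22 and 4.33 CPM at 8 h, against 20.4, 21.6 and 22.9 CPM at 0 h, a log2 fold change of -2.14 ± 0.10 (SE, edgeR adjusted p = 1.9e-27). The xanthine dehydrogenase gene Xdh (-2.16), the chemokine gene Cxcl12 (-2.15) and the mitochondrial tRNA genes mt-Ta (-2.24) and mt-Tw (-2.24) made up the rest (log2 fold changes). The mean at 4 h lay between those at 0 and 8 h for 13 of the 15, and not for the pair of tRNA genes. All 15 also fell in WT.

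**Figure D2:**
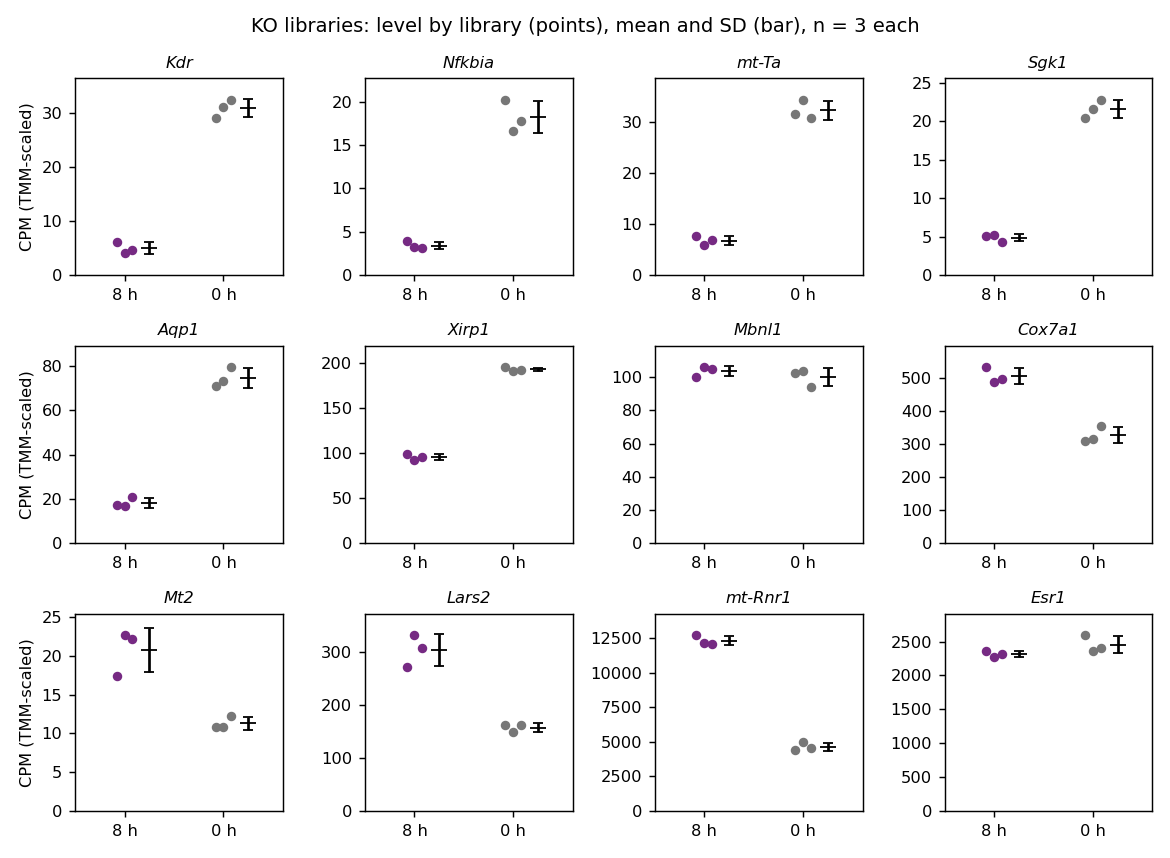
TMM-scaled CPM of 12 genes in the KO libraries, 8 h on the left and 0 h on the right of each panel; points are libraries, and the bar beside them gives the mean and SD (n = 3 each). Kdr, Nfkbia, mt-Ta, Sgk1, Aqp1 and Xirp1 lie lower at 8 h, Cox7a1, Mt2, Lars2 and mt-Rnr1 lie higher, and Mbnl1 and Esr1 were not called with TMM scaling; under ribosomal protein scaling Mbnl1 and Esr1 were called lower.

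Markers of other cell types fell as lists, set against 23.2% of all genes that fell. The lists were drawn up with earlier results of these data known. All 27 endothelial markers fell, 26 of them by more than 2-fold, with a median log2 fold change of -2.14. Their deepest was the apelin receptor gene Aplnr, with 0.121, 0.435 and 0.541 CPM at 8 h against 3.89, 3.66 and 3.58 CPM at 0 h (log2 fold change -3.32 ± 0.30, SE). The smallest was Vwf, the von Willebrand factor gene, at -0.52 ± 0.12 (SE). Of 25 fibroblast and matrix markers tested, 19 fell and 1 rose (median -1.004). The collagen gene Col5a2 had the deepest fall of that list at -2.11 ± 0.46 (SE) from levels under 1 CPM. The single riser was Fbln1, a fibulin gene, at 0.28 ± 0.10 (SE), which lost its call with library size alone, without KO 0 h replicate 2 or 3 and without KO 8 h replicate 2 or 3, and turned to -0.11 under ribosomal protein scaling. Of 20 macrophage and leukocyte markers tested, 14 fell and 0 rose (median -0.76). The chemokine receptor gene Cx3cr1 was at 0 in the 3 libraries of 8 h and at 0.113, 0.180 and 0.115 CPM at 0 h, too few counts for a fold. Lyz2, the lysozyme gene of macrophages, fell least at -0.37 ± 0.11 (SE), a call lost without KO 0 h replicate 3 and without KO 8 h replicate 2. Of 11 pericyte and smooth muscle markers tested, 7 fell and 3 rose (median -0.99), and 1 rose without KO 0 h replicate 2 or KO 8 h replicate 2. Their extremes were the receptor gene Pdgfrb at -1.89 ± 0.29 (SE) and Abcc9 at 0.51 ± 0.05 (SE), which also encodes a channel subunit of cardiomyocytes. Of 8 erythroid and atrial markers, 3 globin genes fell and Nppa rose. Hbb-bt had 0, 0 and 0.120 CPM at 8 h against 0.113, 0.180 and 0.577 CPM at 0 h, and its call was lost without KO 0 h replicate 3 or KO 8 h replicate 1 or 2.

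In the lists of regulators given next, of kinds whose transcripts are typically short-lived, more members fell than rose, set against 23.2% of all genes that fell. Half-lives of the members were not measured here. Of 31 immediate early genes tested, 24 fell and 2 rose, with a median log2 fold change of -0.85. The fall was deepest in Egr3, a zinc finger transcription factor gene, which had 0, 0 and 0.0601 CPM at 8 h against 0.113, 0.120 and 0.404 CPM at 0 h and lost its call without KO 0 h replicate 3 and without KO 8 h replicate 1 or 2. Well-measured examples, chosen after their values were seen, were the growth regulator gene Myc and the transcription factor gene Klf4. Myc had 1.93, 1.80 and 2.41 CPM at 8 h against 7.33, 7.80 and 8.71 CPM at 0 h (log2 fold change -1.95 ± 0.15, SE). Klf4 had 4.05, 2.99 and 3.37 CPM at 8 h against 11.5, 13.4 and 12.2 CPM at 0 h (log2 fold change -1.83 ± 0.12, SE). Neither gene's groups overlapped. The list was not uniform. Egr1, a zinc finger gene of the same family as Egr3, had 119, 129 and 129 CPM at 8 h against 101, 102 and 105 CPM at 0 h. Its log2 fold change was 0.29 ± 0.05 (SE, edgeR adjusted p = 9.9e-07), and -0.10 under ribosomal protein scaling. Fos, a partner of Jun in the AP-1 factor, also rose, at 0.21 with TMM scaling. With library size alone 1 gene of the list rose, and under ribosomal protein scaling 0 rose and 29 fell.

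Of 32 signalling feedback genes tested, 26 fell and 0 rose, with a median of -0.77. These encode inhibitors that their own pathways induce. The receptor tyrosine kinase antagonist gene Spry1 had the deepest fall, with 0.242, 0.373 and 0.361 CPM at 8 h against 2.37, 1.80 and 3.35 CPM at 0 h (log2 fold change -2.92 ± 0.33, SE). Tnfaip3, a ubiquitin-editing brake on NF-kappaB chosen after its values were seen, fell with Nfkbia (-2.79 ± 0.22, SE). The smallest call was in Spred2, an inhibitor of the Ras pathway, at -0.27 ± 0.10 (SE), which was lost with DESeq2, with no filter on low counts, and without KO 0 h replicate 1 or KO 8 h replicate 3. Of 21 genes of the FoxO, muscle atrophy and alpha-arrestin group, 17 fell and 1 rose (median -0.56). Arrdc1 led with a log2 fold change of -2.41 ± 0.58 (SE) from under 1 CPM. At higher level stood Txnip, which restrains glucose uptake and thioredoxin and was chosen after its values were seen. It had 89.99, 82.6 and 86.4 CPM at 8 h against 278, 259 and 254 CPM at 0 h (log2 fold change -1.61 ± 0.05, SE, edgeR adjusted p = 2.1e-38). Foxo4 was the single riser at 0.26 ± 0.06 (SE), not called with library sizes alone and at -0.13 under ribosomal protein scaling. Of 24 p53 response genes, 11 fell and 5 rose (median -0.43). They ran from the stress sensor gene Sesn2 at -1.63 ± 0.22 (SE) to Ccng1, a cyclin G gene, at 0.33 ± 0.04 (SE); Ccng1 was at -0.06 under ribosomal protein scaling.

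**Figure D3:**
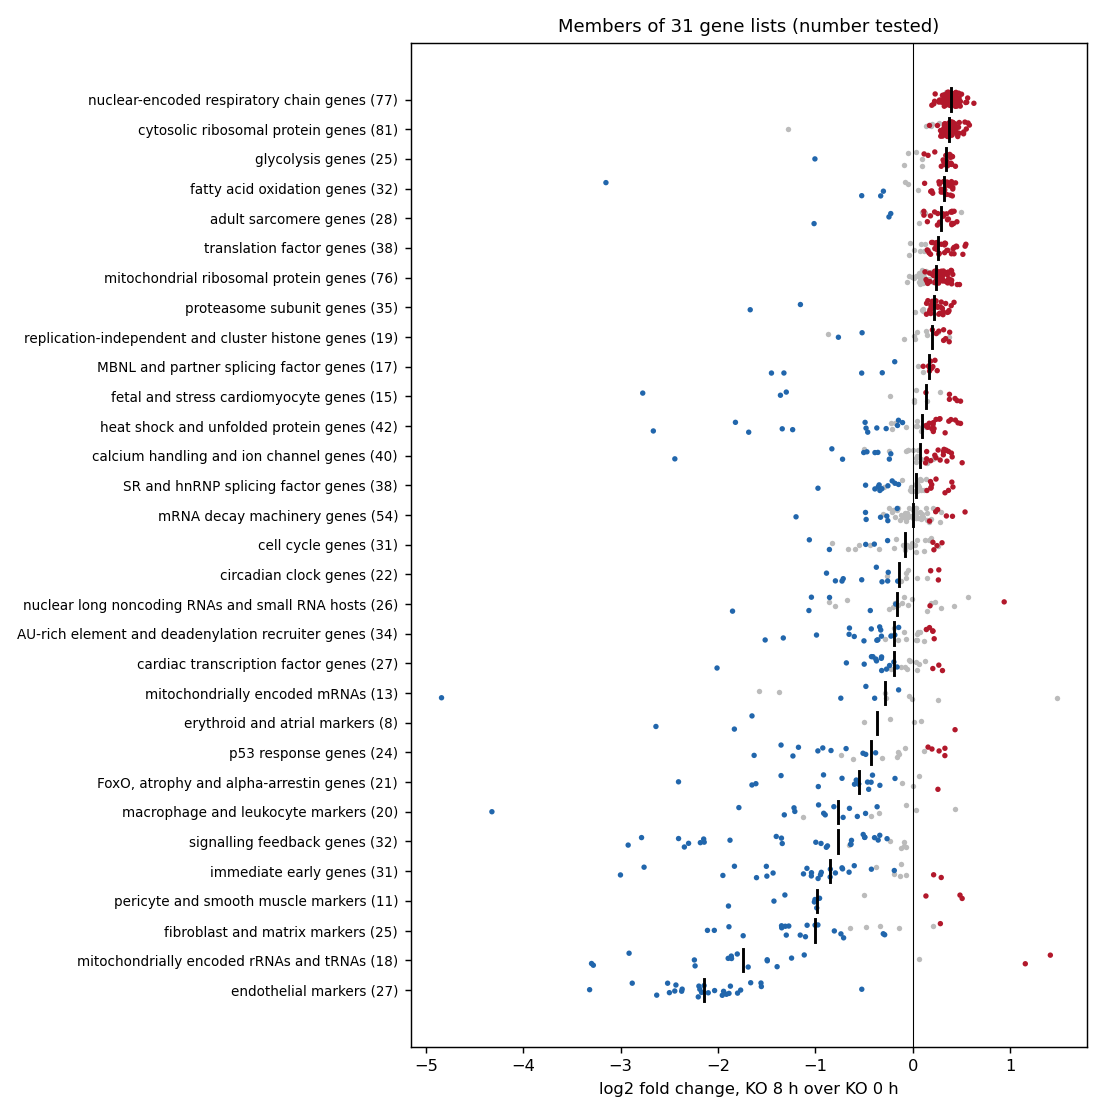
Log2 fold change, KO at 8 h over KO at 0 h, of the members of 31 gene lists ordered by median (black bar), with the number tested in brackets; blue points fell, red points rose and grey points were not called. Endothelial markers have the lowest median (-2.14) and nuclear-encoded respiratory chain genes the highest (0.40); under ribosomal protein scaling 13 of the lists with a positive median turn negative, and with library size alone 3 do, besides the mRNA decay list at 0.00.

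Sequence features not used to choose genes were read from GENCODE M21 on GRCm38 for 11892 nuclear protein-coding genes with a 3′ UTR, 89.9% of genes tested. The AU-rich heptamer TATTTAT was searched on the sense strand of the 3′ UTR, overlapping copies counted, and the nonamer TTATTTATT includes it. Among the 15 lowest named genes, 13 have a 3′ UTR and 6 of these hold the heptamer, against 1 of 12 among the 15 highest and 28.6% of all 11892. These sets differ in 3′ UTR length, which ran from 389 to 5660 bases in the lowest and from 63 to 986 bases in the highest. The heptamer stood in 6.09% of the shortest quartile of 3′ UTRs and 55.9% of the longest, so the counts do not compare genes of like length. The windows of 30 bases below show its first copy, or the nonamer where present, in those 6 genes and in Zfp36, the gene of tristetraprolin, which itself binds such elements. Capitals mark the motif.
Kdr (chr5:75933163-75933192, reverse strand): tatggcacatcTATTTATagtctgttatgt
Ptprb (chr10:116388029-116388058, forward strand): ttcaagactccTATTTATtcaaatattcca
Nfkbia (chr12:55489608-55489637, reverse strand): aggaccacgttTTATTTATTgtgcttttga
Cxcl12 (chr6:117176367-117176396, forward strand): accagctgctgTATTTATgtgcttcataag
Adgrf5 (chr17:43456736-43456765, forward strand): caaattacagaTATTTATtaaaactgcatc
Sgk1 (chr10:21999635-21999664, forward strand): aaaacgggcatTATTTATgttttttttccc
Zfp36 (chr7:28376951-28376980, reverse strand): ttatgacgactTTATTTATTgtattaagat
A match describes these letters only and is no evidence that a protein binds there. The other 7 of the 13, Podxl, Cav1, Ly6c1, Xdh, Ly6e, Aqp1 and Fabp4, have no copy in the annotated transcript.

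Over all such genes the heptamer was commoner among those that fell. It stood in 35.6% of the 2963 genes called lower and in 22.3% of the 2703 called higher, against 28.6% of all 11892. Among the 890 that fell by more than 2-fold the share was 32.9%, below that of all genes called lower. Genes without a copy had a median log2 fold change of 0.00 and 22.5% of them fell. With 1 copy the median was -0.09, with 2 copies -0.11, with 3 copies -0.15 and with 4 or more -0.12, and 29.2 to 35.4% of these genes fell. Longer 3′ UTRs hold more copies, and length moved in the same direction. From the shortest to the longest quartile of 3′ UTRs the median ran 0.10, -0.04, -0.07 and -0.09. Within the second quartile (428 to 1044 bases) the median was still -0.02 without a copy, -0.08 with 1 and -0.20 with 2 or more, the last from 105 genes. In the shortest quartile the same medians were 0.10, 0.07 and -0.16, the last from 17 genes. Within the third they were -0.06, -0.08 and -0.13. Within the longest quartile the medians were closer, at -0.08, -0.11 and -0.11. From the shortest to the longest quartile of coding length the median ran 0.14, -0.01, -0.09 and -0.13. YGCY, in which Y is C or U, had 13 copies per kilobase of 3′ UTR in genes that fell and 12.6 in genes that rose, against 12.7 over all genes.

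The level of a gene in WT at 0 h, taken from libraries outside the comparison, ordered the changes more steeply. From its lowest to its highest quartile the median log2 fold change was -0.31, -0.17, -0.01 and 0.19. In the lowest quartile 17.5% of genes fell by more than 2-fold, against 0.841% in the highest. With TMM scaling the share that rose ran from 2.12% in the lowest quartile to 60.1% in the highest. Well-counted genes are also called more easily. These shares were not repeated under other scalings, and of all genes 1495 rose with library size alone and 27 under ribosomal protein scaling. Spearman's rho across genes was 0.43 for this level, -0.27 for transcript length and -0.11 for heptamer count, as descriptions over genes that are not independent replicates. Long noncoding genes (711 tested) had 6.75% lower and 7.88% higher. Low counts limit calls among them.

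**Figure D4:**
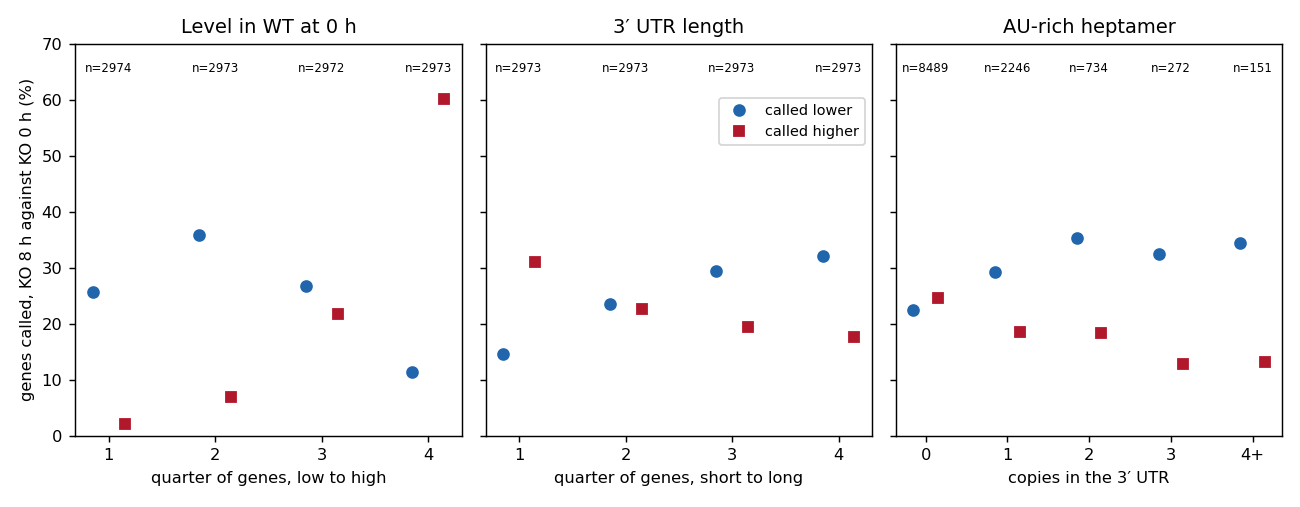
Share of nuclear protein-coding genes that fell (blue circles) or rose (red squares) in KO at 8 h against KO at 0 h, by quartile of their level in WT at 0 h, by quartile of 3′ UTR length and by copies of the AU-rich heptamer; the number of genes stands above each class. Calls are those with TMM scaling. The share that rose is 60.1% in the highest quartile of level and 2.12% in the lowest, and the share that fell is 14.6% in the shortest quartile of 3′ UTRs and 32.1% in the longest.

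The highest of the named genes were both mitochondrial ribosomal RNAs. The small-subunit rRNA mt-Rnr1 (ENSMUSG00000064337, mitochondrial positions 70 to 1024, GRCm38) had 12741, 12197 and 12108 CPM at 8 h, against 4410, 4968 and 4551 CPM at 0 h. Its log2 fold change was 1.41 ± 0.05 (SE, edgeR adjusted p = 1.0e-32) with no overlap, and at 4 h it had 7598, 7791 and 8121 CPM. The large-subunit rRNA mt-Rnr2 had 22476, 22105 and 21038 CPM at 8 h, against 9420, 10476 and 9588 CPM at 0 h (1.15 ± 0.05, SE). Lars2, the mitochondrial leucyl-tRNA synthetase gene (GRCm38 chromosome 9, 123366927 to 123462666), had 272, 333 and 309 CPM at 8 h, against 163, 149 and 162 CPM at 0 h (0.95 ± 0.09, SE). Malat1, a nuclear-retained long noncoding RNA (chromosome 19, 5795690 to 5802672), had 305, 369 and 263 CPM at 8 h, against 191, 162 and 136 CPM at 0 h (0.94 ± 0.21, SE, edgeR adjusted p = 0.0036). Its libraries spread more widely than those of the other genes, and its call was lost under ribosomal protein scaling at 0.55. The metallothionein gene Mt2, whose product binds zinc and copper, had 17.5, 22.7 and 22.2 CPM at 8 h, against 10.9, 10.8 and 12.2 CPM at 0 h (0.88 ± 0.10, SE).

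Energy and translation genes filled several of the other places. The cytochrome c oxidase subunit gene Cox7a1 of heart and skeletal muscle had 534, 488 and 499 CPM at 8 h, against 311, 317 and 357 CPM at 0 h (0.63 ± 0.07, SE). Pet100, an assembly factor of the same complex, changed by 0.61, Mecr of mitochondrial fatty acid synthesis by 0.59 and the complex I subunit gene Ndufa3 by 0.56 (log2 fold changes). The ribosomal protein genes Rpl39 (0.58) and Rplp2 (0.57) were also among the 15. Iah1 (0.65), an esterase gene, Svbp (0.59), a vasohibin partner gene, Rsph3a (0.57), a radial spoke gene, and Gmppa (0.57) of GDP-mannose metabolism completed them. Calls of Iah1, Pet100, Mecr, Svbp, Rsph3a and Gmppa were lost under ribosomal protein scaling, with no change of sign. For all 15 the 4 h mean lay between those at 0 and 8 h.

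Mitochondrially encoded RNAs did not move together. These genes lie on a small circular genome that its own polymerase transcribes into long precursors from which tRNAs are cut. Of 18 rRNA and tRNA genes tested, the 2 rRNAs rose and 15 of 16 tRNAs fell, against 21.4 and 23.2% of all genes. The alanine tRNA mt-Ta (mitochondrial positions 5018 to 5086, reverse strand) had 7.68, 5.91 and 6.85 CPM at 8 h, against 31.7, 34.4 and 30.9 CPM at 0 h (-2.24 ± 0.15, SE, edgeR adjusted p = 2.2e-09). Its 4 h mean of 6.44 CPM was no higher than that at 8 h. At 4 h the 15 tRNAs stood at 8.87 to 50% of their 0 h level and at 8 h at 10.1 to 46.1%, and 8 of them had a lower mean at 4 h than at 8 h. The deepest fall was in the serine tRNA mt-Ts2, at 0.484, 0.684 and 0.0601 CPM at 8 h against 4.79, 5.04 and 2.37 CPM at 0 h (-3.30 ± 0.65, SE). Both strands were involved, with 9 of 9 tRNAs of the forward strand and 6 of 7 of the reverse strand lower. The proline tRNA mt-Tp was the exception, at 258, 249 and 238 CPM at 8 h against 203, 271 and 240 CPM at 0 h (0.06 ± 0.13, SE). A tRNA gene is shorter than most sequenced fragments, and how fragments that reach into a neighbouring gene were counted is not given in the sources used here. Mature tRNAs and the longer precursors that hold them were not told apart. The falls are therefore of counts at tRNA genes, and the level of mature tRNAs was not measured.

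Of the 13 mitochondrial mRNAs, 5 fell, 0 rose and 8 were not called (median log2 fold change -0.29), against 23.2% of all genes that fell. Without KO 8 h replicate 1 or 3 the falls numbered 3. Complex I subunit genes mt-Nd5 (-0.48 ± 0.10, SE) and mt-Nd1 (-0.39 ± 0.09, SE) fell. The cytochrome b gene mt-Cytb had 65688, 67126 and 61754 CPM at 8 h against 68249, 76971 and 70128 CPM at 0 h (-0.15 ± 0.06, SE). Its call was lost with RLE factors, with DESeq2, with no filter on low counts and without KO 0 h replicate 2, KO 8 h replicate 1 or KO 8 h replicate 3. The oxidase subunit gene mt-Co1 was at 154465, 169082 and 151035 CPM at 8 h and 157572, 174758 and 154430 CPM at 0 h, and these overlap. The ATP synthase subunit gene mt-Atp8 was called lower at -4.84 ± 1.55 (SE), but this rests on KO 0 h replicate 3 with 256 CPM beside 2.09 and 7.68 CPM in the other replicates. Without that library its value was -0.64 (edgeR adjusted p = 0.622), and the call was also lost without KO 8 h replicate 1 or 3 and with no filter on low counts or a fit of the compared groups only. The same library held 175 CPM of mt-Atp6, against 15.8 and 32.0 CPM in the other 0 h libraries. In KO at 0 h the mRNAs from mt-Co2 to mt-Nd4l in genome order averaged 13.9 to 88.6 CPM. All the others averaged 13486 (mt-Nd6) to 162253 CPM (mt-Co1). The tRNA genes mt-Tg and mt-Tr lie in that low stretch. The nuclear genome holds near-identical copies of mitochondrial sequence, and the treatment of reads with several positions is not given in the sources used here. Values of all 13 mRNAs, and of the tRNA genes between them, are thus uncertain to an extent that was not tested.

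**Figure D5:**
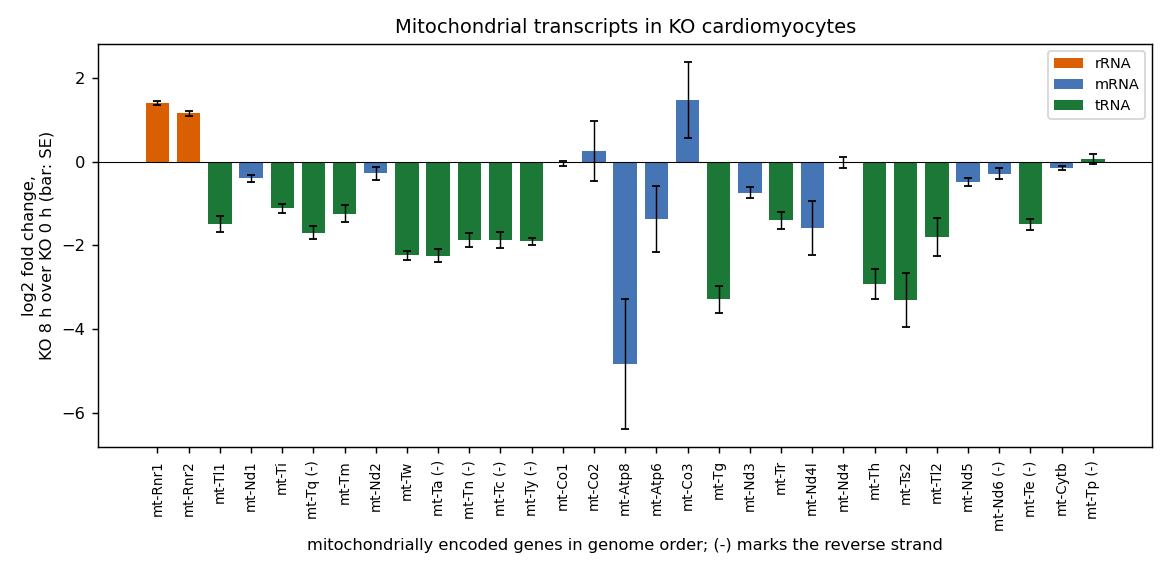
Log2 fold change, KO at 8 h over KO at 0 h, of 31 mitochondrially encoded genes in genome order, with the SE as error bar; (-) marks genes of the reverse strand. Both rRNAs (orange) lie above 0, 15 of 16 tRNAs (green) lie below it, and mRNAs (blue) fall between -4.84 for mt-Atp8, which rests on 1 library, and 1.48 for mt-Co3, which was not called.

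Nuclear genes of energy supply rose together in share with TMM scaling. Of 77 nuclear-encoded respiratory chain genes 76 rose (21.4% of all genes rose), with a median log2 fold change of 0.40, which was 0.29 without TMM factors and 0.01 under ribosomal protein scaling. They ran from the ATP synthase subunit gene Atp5l at 0.19 ± 0.05 (SE), not called with library sizes alone and at -0.19 under ribosomal protein scaling, to Cox7a1. Of 32 fatty acid oxidation genes 25 rose and 4 fell (median 0.32, and -0.07 under ribosomal protein scaling). Hadh, a dehydrogenase of the beta-oxidation spiral, rose by 0.44 ± 0.04 (SE). Angptl4, the lipoprotein lipase inhibitor induced by PPARs in fasting (GRCm38 chromosome 17, 33773750 to 33781830), went the other way, with 2.18, 2.30 and 2.59 CPM at 8 h against 20.6, 21.9 and 20.5 CPM at 0 h (-3.15 ± 0.11, SE, edgeR adjusted p = 3.2e-33). It was at 5.29 CPM at 4 h. Of 25 glycolysis genes 19 rose and 1 fell (median 0.34, and -0.06 under ribosomal protein scaling). Pkm, pyruvate kinase, rose by 0.44 ± 0.04 (SE). Pfkfb1, which sets the level of a sugar phosphate that activates glycolysis, fell by 1.01 ± 0.16 (SE) on the log2 scale.

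Genes of protein synthesis rose in share as well with TMM scaling. The lists are set against 21.4% of all genes that rose and 23.2% that fell. Of 81 cytosolic ribosomal protein genes 74 rose and 0 fell (median 0.37, and -0.015 under ribosomal protein scaling, which sets their sum equal). Together they summed to 12740 to 13870 CPM at 8 h, against 9656 to 10650 CPM at 0 h. The smallest rise was in Rpl3 at 0.17 ± 0.06 (SE), not called with library size alone or without KO 0 h replicate 1 or KO 8 h replicate 3, and at -0.22 under ribosomal protein scaling. Many of these genes have processed copies elsewhere in the genome, so their single levels are uncertain. Of 38 translation factor genes 30 rose and 0 fell (median 0.25, and -0.14 under ribosomal protein scaling). Tpt1, the translationally controlled tumour protein gene, led at 0.54 ± 0.04 (SE). The smallest call was in Eif2s1 at 0.15 ± 0.06 (SE), lost with library size alone and without any 1 of KO 0 h replicates 1 and 3 and KO 8 h replicates 2 and 3, and at -0.24 under ribosomal protein scaling. Of 76 mitochondrial ribosomal protein genes 53 rose and 0 fell (median 0.24, and -0.15 under ribosomal protein scaling). Mrpl54 led at 0.48 ± 0.08 (SE). Mrpl45, the lowest called at 0.12 ± 0.05 (SE), lost its call without any 1 of the 3 KO 0 h replicates, without KO 8 h replicate 1 or 3 and with library size alone, and was at -0.27 under ribosomal protein scaling. Of 35 proteasome subunit genes 29 rose and 2 fell (median 0.22, and -0.17 under ribosomal protein scaling). Those that fell, Psmb9 (-1.67 ± 0.39, SE) and Psmb8 (-1.15), encode catalytic subunits of the immunoproteasome. Psmb6, which encodes a catalytic subunit of the standard proteasome, led the risers at 0.42 ± 0.07 (SE). Without TMM factors the rises numbered 17 translation factor, 29 mitochondrial ribosomal protein and 14 proteasome genes, and under ribosomal protein scaling 2, 0 and 0.

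The contractile genes were divided between sarcomere proteins that rose and a small set that fell. Their counts are set against 21.4% of all genes that rose and 23.2% that fell. Of 28 adult sarcomere genes 21 rose and 3 fell (median 0.29, and -0.10 under ribosomal protein scaling). Myl3, the ventricular essential light chain, rose by 0.45 ± 0.04 (SE), a call lost under ribosomal protein scaling. Xirp1, an actin-binding repeat protein of the intercalated disc (GRCm38 chromosome 9, 120013755 to 120023598), had 98.8, 92.9 and 95.2 CPM at 8 h against 195, 192 and 193 CPM at 0 h (-1.01 ± 0.05, SE, edgeR adjusted p = 3.0e-28). The other genes that fell were Lmod2 (-0.25), a thin filament nucleator, and Synpo2l (-0.23), a Z-disc protein. Of 15 fetal and stress cardiomyocyte genes 6 rose and 3 fell (median 0.13, and -0.25 under ribosomal protein scaling). Tnnt1, the slow skeletal troponin T gene, rose by 0.49 ± 0.06 (SE) and Nppa, the atrial natriuretic peptide gene, by 0.43 ± 0.05 (SE). Runx1, a transcription factor gene, had 0.181, 0.373 and 0.0601 CPM at 8 h against 1.13, 1.20 and 1.96 CPM at 0 h (-2.77 ± 0.42, SE).

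Of 40 calcium handling and ion channel genes 17 rose and 9 fell, against 21.4 and 23.2% of all genes (median 0.07, turning to -0.03 without TMM factors and to -0.32 under ribosomal protein scaling). Without TMM factors 11 rose and 11 fell, and under ribosomal protein scaling 0 rose and 26 fell. Abcc9, the regulatory subunit of the ATP-sensitive potassium channel, had 439, 474 and 431 CPM at 8 h against 331, 309 and 306 CPM at 0 h. Kcna5, a voltage-gated potassium channel gene, had 0.907, 1.18 and 0.661 CPM at 8 h against 5.02, 4.38 and 5.60 CPM at 0 h (-2.44 ± 0.21, SE). Genes chosen after their values were seen include Kcnj2, the inward rectifier channel gene, which fell by 0.83 ± 0.07 (SE) on the log2 scale. Jph2, which tethers the transverse tubule to the sarcoplasmic reticulum, had 169, 164 and 166 CPM at 8 h against 270, 265 and 288 CPM at 0 h (-0.72 ± 0.04, SE). Cardiac transcription factor genes leaned lower, with 14 of 27 lower and 3 higher (median -0.20). They include the core factor genes Gata4 (-0.38), Gata6 (-0.50), Hand2 (-0.37), Tbx5 (-0.24), Tbx20 (-0.27) and Nkx2-5 (-0.16), named after their values were seen. Tead4 was lowest at -2.01 ± 0.52 (SE) from under 1 CPM. Its relative Tead1 rose by 0.30 ± 0.05 (SE), and was at -0.09 under ribosomal protein scaling.

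Calls among genes of the decay machinery itself depended on the scaling. Of 54 mRNA decay machinery genes 7 fell and 6 rose, against 23.2 and 21.4% of all genes, with a median of 0.00. Without TMM factors 16 fell and 3 rose (median -0.11), and under ribosomal protein scaling 42 fell and 0 rose (median -0.39). The 7 falls were 4 without KO 0 h replicate 2, with DESeq2 and with no filter on low counts. The decapping enhancer gene Edc3 was lowest, with 1.33, 1.68 and 1.80 CPM at 8 h against 3.44, 4.08 and 3.58 CPM at 0 h (-1.20 ± 0.19, SE). Lsm4, of the ring that binds deadenylated ends, was highest at 0.54 ± 0.08 (SE). Among 34 genes of AU-rich element binding and deadenylation recruitment 16 fell and 5 rose (median -0.19). The 5 rises were 3 without KO 0 h replicate 3 or KO 8 h replicate 2, and 0 both without TMM factors and under ribosomal protein scaling. Zc3h12a, an endonuclease gene, was lowest at -1.52 ± 0.23 (SE). Zfp36, whose nonamer is printed above, had 15.3, 14.2 and 14.6 CPM at 8 h against 21.7, 23.0 and 24.9 CPM at 0 h (-0.65 ± 0.08, SE). The cytoplasmic polyadenylation factor gene Cpeb2 was the highest at 0.22 ± 0.07 (SE), not called with library sizes alone and at -0.17 under ribosomal protein scaling.

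Splicing factor genes were counted in a pair of lists, set against 23.2% of all genes that fell and 21.4% that rose. Among 17 MBNL and partner splicing factor genes 10 rose and 5 fell (median 0.16, and -0.23 under ribosomal protein scaling). Rises numbered 5 without KO 0 h replicate 3, 6 without KO 8 h replicate 2, 1 without TMM factors and 0, with 14 falls, under ribosomal protein scaling. Rbm24, a muscle splicing activator, led at 0.25 ± 0.05 (SE) and was at -0.14 under ribosomal protein scaling. Nova2, at under 1.2 CPM in each library, was lowest at -1.45 ± 0.52 (SE), a call lost without KO 0 h replicate 3 and without KO 8 h replicate 1 or 2. Among 38 SR and hnRNP genes 11 fell and 10 rose (median 0.04, turning to -0.07 without TMM factors and to -0.35 under ribosomal protein scaling), shares near those of all genes. Without TMM factors 13 fell and 4 rose, and under ribosomal protein scaling 33 fell and 0 rose. Clk1, a kinase of SR proteins, had 23.6, 23.4 and 22.9 CPM at 8 h against 45.8, 45.4 and 46.0 CPM at 0 h (-0.97 ± 0.07, SE, edgeR adjusted p = 1.7e-19). Hnrnpab, an hnRNP gene, was highest at 0.41 ± 0.06 (SE), a call lost under ribosomal protein scaling.

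The remaining lists are set against 21.4% of all genes that rose and 23.2% that fell. Of 42 heat shock and unfolded protein genes 18 rose and 13 fell (median 0.09, turning to -0.02 without TMM factors and to -0.30 under ribosomal protein scaling). Without TMM factors 6 rose and 14 fell, and under ribosomal protein scaling 0 rose and 30 fell. Chac1, a glutathione-degrading enzyme induced by amino acid and endoplasmic reticulum stress, had 1.33, 1.49 and 1.68 CPM at 8 h against 10.0, 9.12 and 9.52 CPM at 0 h (-2.66 ± 0.18, SE). The inducible chaperone gene Hspa1b, chosen after its values were seen, had 3.93, 4.1 and 3.61 CPM at 8 h against 11.6, 12.8 and 13.2 CPM at 0 h (-1.69 ± 0.13, SE), and it shares nearly all of its sequence with Hspa1a. Hspb6, a small heat shock protein of muscle, rose by 0.49 ± 0.05 (SE). Of 22 circadian clock genes 10 fell and 3 rose (median -0.14), and with no filter on low counts 6 fell. Npas2, a partner of Bmal1, was lowest at -0.89 ± 0.21 (SE), and the output factor gene Hlf highest at 0.27 ± 0.08 (SE). The call of Hlf was lost with library size alone and without KO 8 h replicate 1, and it was at -0.12 under ribosomal protein scaling. Of 19 histone genes 8 rose and 2 fell (median 0.20, and -0.19 under ribosomal protein scaling), and 5 rose without KO 8 h replicate 3. H3f3b, which encodes histone H3.3, had 31.5, 32.2 and 32.9 CPM at 8 h against 55.5, 54.2 and 54.4 CPM at 0 h (-0.76 ± 0.06, SE). H2afv rose by 0.38 ± 0.08 (SE), and was at -0.01 under ribosomal protein scaling. Of 31 cell cycle genes 5 fell and 4 rose (median -0.08), and 3 fell without KO 0 h replicate 2 or KO 8 h replicate 2. Cdkn1c, an inhibitor of cyclin-dependent kinases, was lowest at -1.06 ± 0.31 (SE), lost without KO 8 h replicate 2, and the cyclin D2 gene Ccnd2 highest at 0.30 ± 0.05 (SE), which was at -0.09 under ribosomal protein scaling. Of 26 nuclear long noncoding RNAs and small RNA hosts 6 fell and 2 rose (median -0.16), a share of falls near that of all genes, and 3 fell without KO 8 h replicate 1 or 3 and with DESeq2. Mir22hg, the host of miR-22, had 2.84, 2.80 and 2.77 CPM at 8 h against 11.0, 11.0 and 8.31 CPM at 0 h (-1.85 ± 0.14, SE).

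Most calls in KO had a call in the same direction in WT. In WT 6859 genes (51.8%) were called, 3313 (25%) higher and 3546 (26.8%) lower, and 8.7% of genes fell by more than 2-fold. Of the genes that fell in KO 77.3% also fell in WT, which is 66.8% of those that fell in WT. For rises these shares were 79.9% of KO and 68.2% of WT. Only 10 genes fell in KO and rose in WT, and 12 did the reverse. The test of the difference between courses called 688 genes (5.2%), 248 (1.87%) with a higher log2 fold change in KO and 440 (3.33%) with a lower one. This count depends on single libraries and on scaling. It was 445 without KO 0 h replicate 3, 422 without KO 8 h replicate 2 and 437 without WT 8 h replicate 1, and without WT 0 h replicate 1 the lower calls numbered 706. Without WT 0 h replicate 2 or 3 the higher calls numbered 130 and 149. With library size alone 564 were higher and 132 lower, and under ribosomal protein scaling 2909 were higher and 44 lower.

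The difference between courses is given for 4 lists, chosen after their values were seen. Each is set against 1.87% of all genes that were higher in KO and 3.33% that were lower. Of 20 macrophage and leukocyte markers, 14 had a higher log2 fold change in KO and 0 a lower one, with a median difference of 1.80. Their summed level was 37.99 to 41.9 CPM in KO at 8 h and 58.0 to 63.0 CPM in KO at 0 h, and 26.7 to 33.5 CPM in WT at 8 h and 133.5 to 154.8 CPM in WT at 0 h. The sets of libraries thus differed more at 0 h than at 8 h. Of 81 cytosolic ribosomal protein genes, 35 had a lower log2 fold change in KO and 0 a higher one, against 3.33% of all genes that were lower. The list median was 0.37 in KO and 0.66 in WT. This difference depends on the scaling. Without TMM factors 17 were lower, and ribosomal protein scaling, which sets the sum of the list equal, left 11 lower and 2 higher with a median difference of -0.02. The count was 23 without WT 8 h replicate 1. Of 28 adult sarcomere genes, 12 were lower in KO and 0 higher, against 4 lower without TMM factors and 7 higher and 0 lower under ribosomal protein scaling. Of 27 endothelial markers 4 differed, all with the smaller fall in KO, a count that ran from 2 without KO 0 h replicate 1, KO 8 h replicate 3, WT 0 h replicate 2 or WT 8 h replicate 1 to 6 without KO 0 h replicate 3. The medians of that list were -2.14 in KO and -2.33 in WT. Among single genes chosen by the size of the difference, Lyz2 had a log2 fold change of -0.37 ± 0.11 in KO and -2.41 ± 0.10 in WT (SE). Chac1 was at -2.66 ± 0.18 in KO and -1.06 ± 0.17 in WT (SE). At 0 h Lyz2 averaged 9.65 CPM in KO and 28.3 CPM in WT, and Chac1 9.56 and 5.52 CPM. Hmox1, the haem oxygenase gene, had 20.8, 25.1 and 20.3 CPM in KO at 8 h against 32.2, 33.7 and 32.3 CPM in KO at 0 h, while WT averaged 40.0 CPM at 8 h and 34.4 CPM at 0 h. Like the macrophage markers, Lyz2, Apoe and H2-D1 had a higher log2 fold change in KO. These genes were chosen by that difference, and Lyz2 is itself on the macrophage list, so the shared direction is no separate result. The part of cell composition in these differences was not tested.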

How the data were processed

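Per the labels, total RNA (TRIzol, RNeasy) was sequenced at BGI on DNBseq. The authors deposited raw counts per Ensembl gene and a table of ratios to baseline, in which the 0 h values of a gene average 1 within a genotype, as the values show. GRCm38 and mm10, STAR, featureCounts, limma and DESeq2 stand in the submitters' processing notes; for versions, roles, strand and multi-mapped reads nothing is given in the sources used here. One row without a gene identifier (0.00735 to 0.0155% of counts) was left out.

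Counts were fitted with edgeR 4.0.16 (R 4.3.3): filterByExpr, TMM, 1 quasi-likelihood model of 6 groups with robust dispersion, and Benjamini-Hochberg adjustment over 13229 genes, calls at 0.05. Each SE is the log2 fold change divided by the square root of F. CPM is TMM-scaled. Scripts were tested on simulated data. Gene positions and UTRs came from GENCODE M21 (99.5% of identifiers matched). Replicates of a group correlated at 0.991 to 0.992 (log2), and none was a copy.

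Named genes are the 15 highest and 15 lowest calls with mean log2 CPM of at least 3, an accepted symbol and no overlap, the highest and lowest call of each of 31 lists, the 5 highest and 5 lowest differences between courses, and Mbnl1, Mbnl2 and Esr1; 1 gene that the rule names is not reported here. Members and lists were chosen with earlier results of these data known. Alternatives were RLE factors, library size alone, ribosomal protein scaling, TMM without mitochondrial genes, other filters, DESeq2 1.42.0, compared groups only, a replicate block, each replicate left out, and limma 3.58.1 on log2(ratio + 0.01) and log2(ratio + 0.1) of the deposited ratios.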

Additional observations from a re-analysis of the deposited data

Results flagged for a closer look

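For 26 of the named genes the test of the difference between the KO and WT courses (edgeR quasi-likelihood, adjusted over all genes tested) passed 0.05. Values are the log2 fold change in KO minus that in WT. A smaller fall or a larger rise in KO was found for the lysozyme gene Lyz2 at 2.05, the endothelial receptor gene Tie1 at 0.96, the class I histocompatibility gene H2-D1 at 0.93, the apolipoprotein gene Apoe at 0.92, the AU-rich element binding gene Zfp36 at 0.84 and Vwf at 0.74. Egr1, at 0.64, rose in KO (0.29 ± 0.05) and fell in WT (-0.34 ± 0.05, SE), although with ribosomal protein scaling its KO value was -0.10. The same direction was found for Ly6e at 0.48, Spred2 at 0.48, Abcc9 at 0.38, Cpeb2 at 0.35 and Tead1 at 0.24. The levels behind a difference vary between genes. Zfp36 averaged 23.2 CPM in KO and 40.9 CPM in WT at 0 h, and 14.7 and 14.5 CPM at 8 h. Apoe averaged 27.6 CPM in KO and 27.9 CPM in WT at 0 h, and 29.9 and 16.0 CPM at 8 h.

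A deeper fall or a smaller rise in KO was found for Chac1 at -1.61, the adhesion molecule gene Icam1 at -0.84, the TGF-beta pseudoreceptor gene Bambi at -0.825, the glutamate tRNA mt-Te at -0.79, Angptl4 at -0.76 and Nfkbia at -0.64. Hmox1, at -0.79, fell in KO (-0.57 ± 0.07) and rose in WT (0.22 ± 0.07, SE). Bambi fell by 0.85 on the log2 scale in KO, against -0.02 ± 0.12 in WT (SE). Smaller differences were found for H3f3b at -0.38, Rpl3 at -0.37, Myl3 at -0.35, Eif2s1 at -0.32, mt-Rnr1 at -0.28, Xirp1 at -0.25 and Atp5l at -0.25. These depend on the scaling. Over all genes the KO minus WT difference shifted upward by a median of 0.11 with library size alone. Under ribosomal protein scaling the shift was 0.28, near the size of several of these values. The single-gene differences were not repeated under those settings.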

How the results depend on the processing

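Calls of KO 8 h against KO 0 h numbered 5246 to 5375 when 1 replicate was left out (2490 to 2613 higher, 2728 to 2766 lower). Differences between courses numbered 422 to 925 (130 to 260 higher, 280 to 706 lower). With library size alone 1495 genes were higher in KO at 8 h, and 564 and 132 genes differed upward and downward between courses; with ribosomal protein scaling these were 27 higher and 8208 lower, and 2953 differing (2909 and 44). The deposited ratios gave 591 higher (pseudocount 0.01) and 601 (0.1). Differences between courses were 413 higher and 260 lower with no filter on low counts, and 146 higher with DESeq2. Under all other alternatives run, counts stayed within 1.5 times.

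List medians turned negative with library size alone for calcium handling (-0.034), SR and hnRNP (-0.069) and heat shock genes (-0.018). With ribosomal protein scaling they did so for cytosolic ribosomal protein (-0.015), translation factor (-0.136), mitochondrial ribosomal protein (-0.15), sarcomere (-0.096), fetal and stress (-0.254), calcium handling (-0.316), fatty acid oxidation (-0.07), glycolysis (-0.057), MBNL partner (-0.228), SR and hnRNP (-0.351), histone (-0.19), heat shock (-0.30) and proteasome genes (-0.173). Under that scaling named genes also turned: Mbnl1 -0.34, Apoe -0.27, Mrpl45 -0.27, Eif2s1 -0.24, Rpl3 -0.22, Atp5l -0.19, Cpeb2 -0.17, Mbnl2 -0.16, Rbm24 -0.14, Foxo4 -0.13, Hlf -0.12, Fbln1 -0.11, Egr1 -0.10, Ccnd2 -0.0903, Tead1 -0.0853, Ccng1 -0.06 and H2afv -0.0132. These turns follow from the lower centre that the scaling sets.

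Equal replicate numbers share only a number: the residual correlations of same-numbered libraries were -0.0385, -0.0238 and 0.125. With a replicate block 5869 genes were called (697 between courses), and the calls of mt-Atp8 and Mrpl45 were lost. At the depth of these libraries counting error limits genes under 1 CPM.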
